A study of Mus musculus with 2 samples.

Results

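Cd36, Fabp4, Fabp5, Lpl, Gpihbp1, Rbp7, Cd300lg and Car4 are 8 genes through which blood vessel endothelium takes up and carries lipids and retinoids, or which mark the capillaries that do so. They were chosen by name and counted in marker-gated endothelial, mural, fibroblast and keratin positive cells of mouse tumours. All 8 were listed in both deposited tables, among 9127 gene symbols that the tables shared. The first of the 2 libraries came from Cdh-cre Myct1 fl/fl mice, spelled Cdh5-cre in the series title. In these mice Cre recombinase, driven by an endothelial cadherin promoter, acts on a floxed allele of Myct1, and they are called the Myct1 knockout here. The other library came from WT mice. Both genotypes were of the C57BL/6 strain, and each library pooled tumour cells of 4 mice. Neither the tumour model nor the age of the mice is given in the sources used here, and the same holds for the floxed exon. With 1 library per genotype no test was possible, so every interval below covers counting error only, and genotype and library cannot be told apart.

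Lipoprotein lipase, encoded by Lpl, is made by parenchymal and stromal cells and frees fatty acids from triglyceride-rich lipoproteins. GPIHBP1 carries the enzyme across capillary endothelium and holds it at the luminal surface. CD36 is a fatty acid translocase, and FABP4 and FABP5 bind fatty acids inside the cell. RBP7 is a cellular retinol binding protein of endothelium and adipose tissue. CD300LG, also called nepmucin, is an endothelial sialomucin-like adhesion molecule, and CAR4 is a membrane-anchored carbonic anhydrase found on capillary surfaces.

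In endothelial cells of the knockout library, Cd36, Rbp7 and Cd300lg stood at least 2-fold lower than in WT and Fabp5 stood at least 2-fold higher. Fabp4, Gpihbp1, Car4 and Lpl lay within 2-fold. Cd36 was 6.15-fold lower, Rbp7 6.04-fold lower, Cd300lg 4.6-fold lower and Fabp5 4.21-fold higher. The 3 lower genes among 8 are to be read against 13.6% of all 8138 genes measured that were at least 2-fold lower, and the 1 higher gene against 3.92% that were at least 2-fold higher. With TMM scaling, which moved the median of all genes to -0.02, those shares were 5.12% and 8.98%, and the same 4 genes passed the limit. The median log2 ratio of the 8 genes was -0.32, midway between Gpihbp1 and the scarce Lpl, beside -0.33 over all genes measured. Read relative to that general shift, each log2 ratio given for endothelial cells lies 0.33 higher.

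The knockout library held 10700 barcodes with a median of 12921 UMIs (unique molecular identifiers, counts of captured transcript molecules), and the WT library 10880 barcodes with a median of 8725.5 UMIs. After barcodes with under 200 genes or over 10% mitochondrial UMIs were left out, 8222 knockout and 8120 WT cells were kept. Although both libraries are labelled as endothelial cells, 3.54% of kept knockout cells and 6.39% of kept WT cells passed the endothelial gate, while 76.0% and 41.8% were keratin positive (Krt8 and Krt18). The endothelial gate held 291 knockout cells (median 7346 UMIs) and 519 WT cells (median 6379 UMIs), and all 20 endothelial markers had UMIs in both. Myct1, which the gate did not use, was not listed in the knockout table, whose listed genes all reached 4 UMIs in a barcode, and had 935 UMIs in WT endothelial cells, 244 CPM (counts per 10 to the power of 6 UMIs of the summed cells). Of all barcodes, 218 occurred in both libraries, and 4 endothelial cells of each library carried one.

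The promoter windows of Cd36, Rbp7 and Car4 are shown because these 3 were the ones with a window in the table used. They are RefSeq windows on GRCm38.p6, 250 bases before to 50 bases after an annotated start, read 5′ to 3′ on the gene's strand. Capitals mark AGGTCA, the core of many nuclear receptor sites, TATAAA, the TATA box core, and CCGGAA, an ETS factor core, on either strand.

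Cd36, chr5:17835847-17836146, minus strand: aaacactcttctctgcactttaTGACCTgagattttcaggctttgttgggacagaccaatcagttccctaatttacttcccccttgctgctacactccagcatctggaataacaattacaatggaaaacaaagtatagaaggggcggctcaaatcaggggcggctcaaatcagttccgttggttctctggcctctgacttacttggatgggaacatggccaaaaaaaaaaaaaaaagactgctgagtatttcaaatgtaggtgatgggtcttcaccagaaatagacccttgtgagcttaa
Rbp7, chr4:149454919-149455218, minus strand: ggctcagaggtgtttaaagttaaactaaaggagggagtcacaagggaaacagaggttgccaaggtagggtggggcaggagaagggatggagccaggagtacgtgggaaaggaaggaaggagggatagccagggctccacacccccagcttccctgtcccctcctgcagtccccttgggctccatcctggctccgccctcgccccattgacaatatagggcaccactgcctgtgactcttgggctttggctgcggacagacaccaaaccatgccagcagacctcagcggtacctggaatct
Car4, chr11:84957504-84957803, plus strand: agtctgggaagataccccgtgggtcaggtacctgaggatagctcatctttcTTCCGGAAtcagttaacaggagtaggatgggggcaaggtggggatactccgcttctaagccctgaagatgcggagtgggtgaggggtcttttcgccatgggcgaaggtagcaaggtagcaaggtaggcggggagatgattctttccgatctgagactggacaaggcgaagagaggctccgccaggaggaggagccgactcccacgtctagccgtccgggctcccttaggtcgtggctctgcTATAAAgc

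The Cd36 window lies inside the annotated span of the gene, at a start downstream of the gene's 5′ end. It held 1 AGGTCA, on the opposite strand at position -228 from that start. AGGTCA occurred in 16.3% of all 32851 windows. The Rbp7 window held none of the 3 motifs. The Car4 window held overlapping CCGGAA matches on both strands and a TATAAA 42 bases after the start, motifs found in 14.9% and 13.6% of all windows. The direct repeat of AGGTCA with a spacer of 1 base was found in none of the 3 windows and in 0.0396% of all of them. A match is a description of the letters, not of a bound site.

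In the mouse genome (GRCm38, GENCODE annotation) none of the 8 genes overlapped another annotated gene. Fabp5 (chr3:10012548-10016607, plus strand) and Fabp4 (chr3:10204088-10208576, minus strand) lie 187480 bases apart. Rbp7 lies at chr4:149449687-149454978 (minus), Cd36 at chr5:17781690-17888801 (minus) and Lpl at chr8:68880491-68907448 (plus). Car4 (chr11:84957786-84966044) and Cd300lg (chr11:102041509-102055620) are on the plus strand of chromosome 11, and Gpihbp1 lies at chr15:75596628-75599481 (plus). Fabp5 has 5 near-identical copies elsewhere in the genome (at least 90% identity over at least 200 bases), none of them listed in the tables, so its counts are uncertain. By the same limits Lpl has 2 partial matches, of 204 bases in Trim5 and 227 bases in Vmn2r120, neither listed in the tables.

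Where each transcript was found differed between the genes. Of all kept-cell UMIs of Gpihbp1, 84.9% in the knockout library and 88.7% in the WT library lay in gated endothelial cells. Rbp7 (79.3% and 88.2%), Cd300lg (87.1% and 85.9%) and Cd36 (72.7% and 82.8%) were likewise mostly endothelial in the knockout and WT libraries. Lpl was mostly a fibroblast transcript, with 78.0% of its UMIs there in the knockout library and 92.1% in WT. Car4 was mostly endothelial in the knockout library, at 71.3% of its UMIs, but mostly fibroblast in WT, where 77.0% lay in fibroblasts and 13.0% in endothelial cells. The knockout library held 140 fibroblasts and the WT library 2839, and this ratio of cells enters all such shares. Fabp5 UMIs were mostly in keratin positive cells of the knockout library, 76.1%, against 40.9% in WT.

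**Figure D1:**
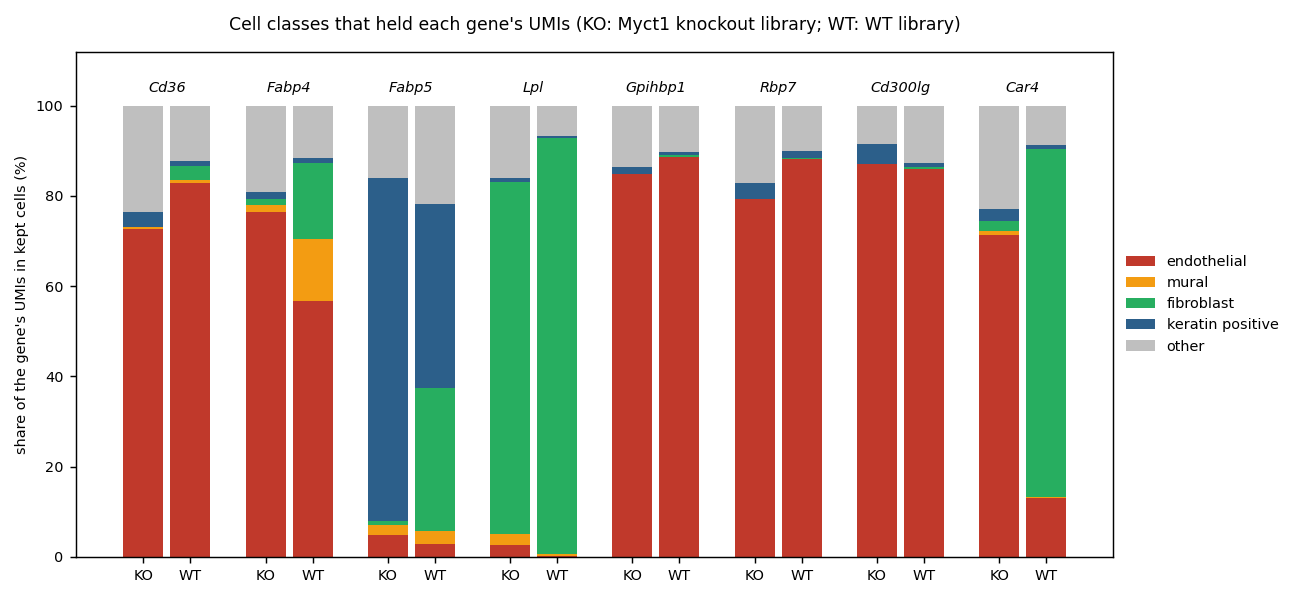
Share of each gene's UMIs in kept cells (vertical axis, percent) by cell class, with the Myct1 knockout library (KO) left of WT for each gene. Endothelial cells hold most UMIs of Cd36, Gpihbp1, Rbp7 and Cd300lg in both libraries, while fibroblasts hold 78.0% of Lpl UMIs in the knockout library and 92.1% in WT.

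Among the uptake genes, Cd36 had 213 UMIs in knockout endothelial cells and 1941 in WT endothelial cells. Its level was 82.5 CPM (95% interval 71.8 to 94.4) in the knockout and 507 CPM (485 to 530) in WT, a log2 ratio of -2.62 (-2.83 to -2.41). Cells were also thinned to 3000 UMIs each, which left 269 knockout and 485 WT cells, and 16.0% and 53.6% of them then had a Cd36 UMI. Without thinning the shares were 29.2% of knockout cells and 64.9% of WT cells. The lower level thus went with fewer Cd36 positive cells and with fewer UMIs in each, 2.51 per positive knockout cell and 5.76 per positive WT cell.

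Fabp4 had 1632 CPM (1583 to 1682) in knockout endothelial cells and 1254 CPM (1219 to 1290) in WT, a log2 ratio of 0.38 (0.32 to 0.44). After thinning, 59.9% of knockout cells and 61.2% of WT cells had a Fabp4 UMI. Levels were uneven, and the highest knockout cell alone held 344 of the 4214 UMIs. Fabp5 moved further, to 166 CPM (151 to 183) in the knockout against 39.4 CPM (33.4 to 46.3) in WT, a log2 ratio of 2.07 (1.80 to 2.35). A Fabp5 UMI was found in 17.1% of thinned knockout cells and 5.15% of thinned WT cells. A single knockout cell held 68 of its 429 UMIs. Fabp5 is also transcribed outside endothelium, and its level was over 3 times higher in mural cells of both libraries, at 1288 CPM in the knockout and 327 CPM in WT. It had 1302 and 668 CPM in knockout and WT macrophages, where 1 knockout cell held 47 of 65 UMIs. In knockout and WT keratin positive cells it had 59.4 and 40.8 CPM. The keratin markers summed to 38.7 CPM in knockout and 19.6 CPM in WT endothelial cells. In thinned keratin positive cells 13.6% of the knockout and 9.88% of the WT cells had a Fabp5 UMI, so its WT endothelial share was not above that of those cells. The part of transcripts from other cells in the Fabp5 difference was not tested.

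In the lipase pair, Gpihbp1 was detected in 90.7% of knockout and 94% of WT endothelial cells. Its level was 1957 CPM (1904 to 2012) in the knockout and 1655 CPM (1614 to 1696) in WT, a log2 ratio of 0.24 (0.19 to 0.30), and -0.07 with clusters in place of the gate. Lpl itself was scarce in endothelium, with 11 UMIs in knockout and 30 in WT endothelial cells. Its log2 ratio was -0.88 with an interval from -2.02 to 0.16, so no difference was detectable at this depth with this gate. It was -1.24 with a mitochondrial limit of 20%, -1.96 with clusters in place of the gate and -3.61 with cells kept that carry markers of another class.

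Rbp7, the retinol binding protein gene, had 46 UMIs in knockout and 412 UMIs in WT endothelial cells. The levels were 17.8 CPM (13.0 to 23.8) in the knockout and 108 CPM (97.5 to 119) in WT, a log2 ratio of -2.59 (-3.07 to -2.15). After thinning, 1.86% of knockout and 18.6% of WT cells had a UMI. For comparison, thinned keratin positive cells had a UMI of Cd36, Fabp4, Gpihbp1, Cd300lg or Car4 in at most 0.215% of knockout and 0.533% of WT cells per gene. Rbp7 had 2 UMIs over 6247 knockout and 7 UMIs over 3396 WT keratin positive cells. Kept cells outside the endothelial, mural, fibroblast and keratin positive gates held 17.2% of its knockout and 10.1% of its WT UMIs.

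Cd300lg had 55.0 CPM (46.3 to 64.8) in knockout and 253 CPM (237 to 269) in WT endothelial cells, a log2 ratio of -2.20 (-2.47 to -1.95). A UMI was found in 10.4% of thinned knockout cells and 43.1% of thinned WT cells. Car4, the other surface gene, had 280 CPM (260 to 302) in the knockout and 233 CPM (218 to 249) in WT, a log2 ratio of 0.27 (0.13 to 0.41), and -0.13 relative to genes of like transcript length. Its share of thinned cells with a UMI was 34.9% in the knockout and 29.1% in WT. At least 1 UMI of Cd36, Rbp7 or Cd300lg was present in 22.7% of thinned knockout cells and 66.6% of thinned WT cells, and the median cell held UMIs of 2 and 3 of the 8 genes.

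**Figure D2:**
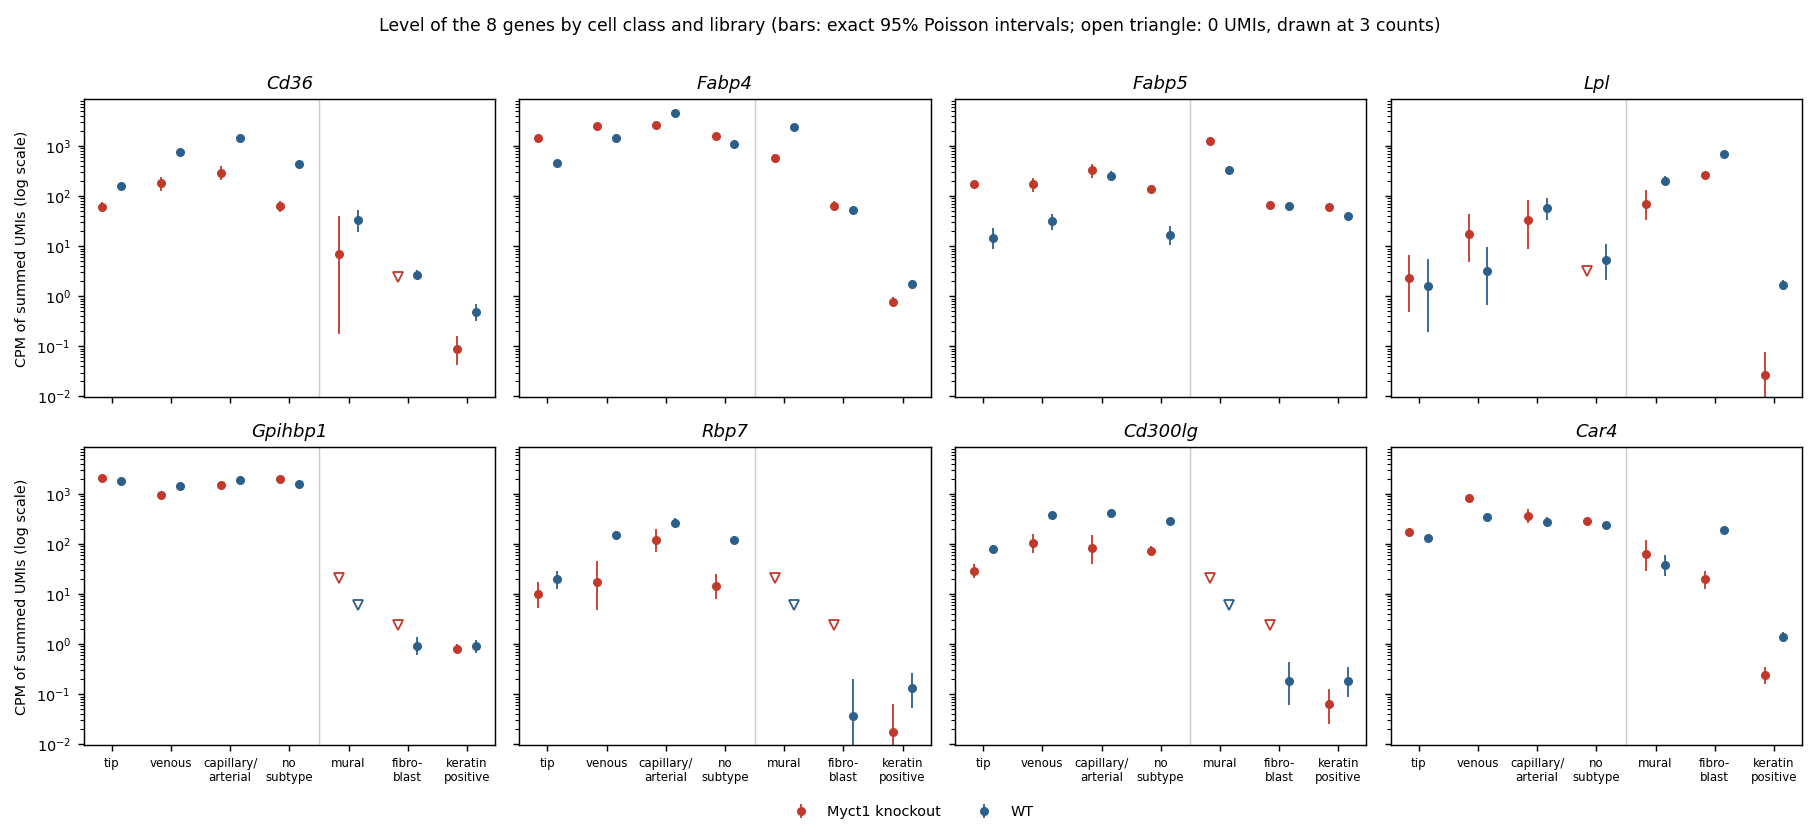
CPM of summed UMIs (vertical axis, log scale) of the 8 genes in 4 sets of endothelial cells (left of the grey line) and 3 other cell classes, Myct1 knockout left of WT, with exact 95% Poisson intervals. Open triangles stand at the 3-count floor where a class had 0 UMIs. Cd36 and Cd300lg lie lower in the knockout in all 4 endothelial sets.

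Endothelial cells were divided by subtype markers that include none of the 8 genes, scored over both libraries together. Markers that change with genotype would move cells between the sets. A difference in makeup therefore cannot be told apart from changed marker levels, in the shares or in the ratios within a set. Tip cells made up 45% of knockout and 26.4% of WT endothelial cells, venous cells 11.3% and 27.9%, and capillary or arterial cells 4.81% and 11.9%. The last set held 14 knockout cells and 62 WT cells. The knockout cells of the other sets numbered 131 tip, 33 venous and 113 with no subtype, against 137, 145 and 175 in WT, and 74 knockout and 165 WT cells lay near a subtype limit.

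Cd36 was at least 2-fold lower in the knockout in all 4 sets. In tip cells it had 59.9 CPM in the knockout and 158 CPM in WT (log2 ratio -1.40), in venous cells 180 and 772 CPM (-2.10), in capillary or arterial cells 296 and 1442 CPM (-2.28), and in cells with no subtype 62.2 and 434 CPM (-2.80). Cd300lg was also at least 2-fold lower in every set, with log2 ratios from -2.36 in capillary or arterial cells to -1.44 in tip cells. Rbp7 had log2 ratios of -3.11 in venous cells, -3.06 in cells with no subtype and -1.12 in capillary or arterial cells. In tip cells Rbp7 was low in both libraries, 10.1 CPM in the knockout and 19.6 CPM in WT, and the interval of its log2 ratio of -0.96 reached 0.07.

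Fabp5 had 171 CPM in knockout and 14.9 CPM in WT tip cells, 11.5-fold higher. This fold leans on few cells. The highest knockout tip cell held 68 of 220 UMIs and the highest WT tip cell 13 of 19. Without thinning, 27 knockout and 5 WT tip cells had a Fabp5 UMI. The log2 ratios were 3.52 in tip cells, 2.45 in venous cells and 3.03 in cells with no subtype. In capillary or arterial cells both libraries had Fabp5, 329 CPM in the knockout and 256 CPM in WT, with an interval of the log2 ratio from -0.22 to 0.93. Fabp4 differed in sign between the sets. It had 1428 CPM in knockout and 457 CPM in WT tip cells (log2 ratio 1.64), but 2624 CPM in knockout and 4585 CPM in WT capillary or arterial cells (-0.81). The highest knockout cell held 344 of 1835 Fabp4 UMIs in tip cells and 128 of 319 in capillary or arterial cells. Car4 was 831 CPM in knockout and 347 CPM in WT venous cells, a log2 ratio of 1.26, and within 2-fold in the other sets. Gpihbp1 stayed within 2-fold in all 4 sets, with log2 ratios from -0.61 in venous cells to 0.33 in cells with no subtype.

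By the 2-fold limit, 2 of 7 genes measured in tip cells were lower and 2 higher, where 13.6% and 2.78% of all genes were. In venous cells 3 of 7 were lower and 2 higher, against 20.4% and 5.39% of all genes. In capillary or arterial cells 3 of 8 were lower and 0 higher, against 22.8% and 7.39%. In cells with no subtype 3 of 7 were lower and 1 higher, against 17.7% and 4.83%. Lpl was the gene short of the 20 UMIs needed in 3 of the sets.

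**Figure D3:**
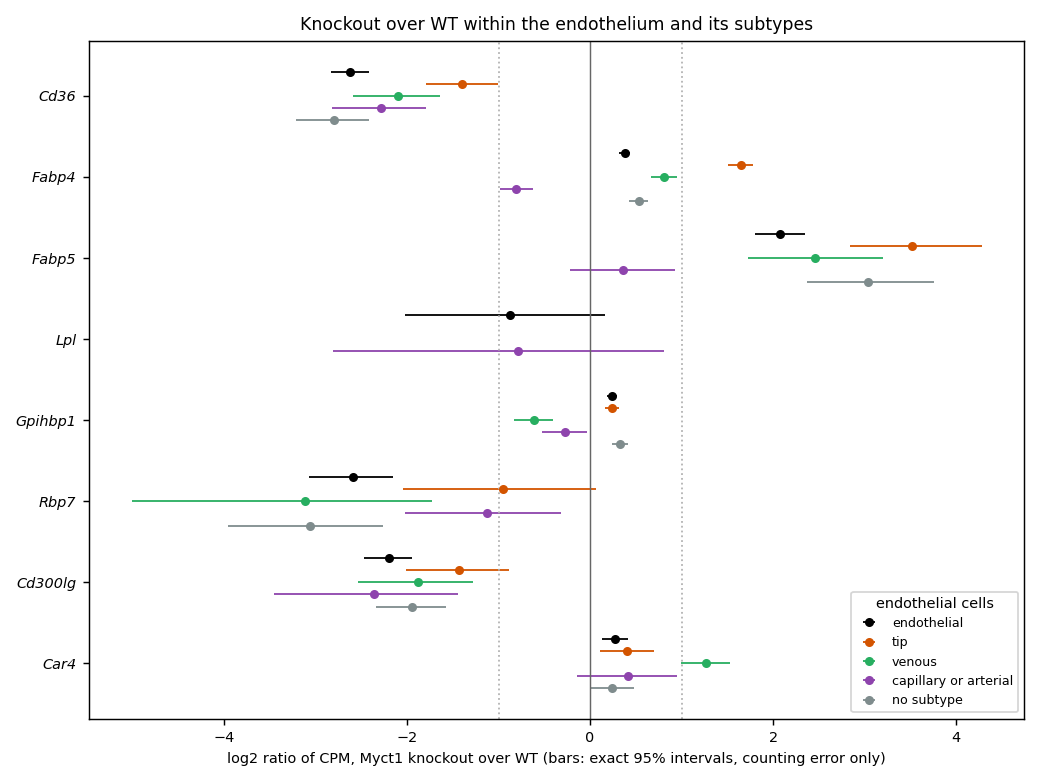
Log2 ratio of CPM, Myct1 knockout over WT (horizontal axis), of each gene in all endothelial cells and in 4 sets of them, with exact 95% intervals for counting error; dotted lines mark 2-fold. Fabp4 lies at 1.64 in tip cells and -0.81 in capillary or arterial cells, while Cd36 and Cd300lg lie left of 0 in every set. Ratios resting on under 20 UMIs are not drawn.

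Markers of other cells moved with genotype in the endothelial gate. The 20 proliferation markers summed to 1364 CPM in knockout and 473 CPM in WT endothelial cells. The fibroblast markers summed to 67.4 CPM in the knockout and 244 CPM in WT, with 10 and 15 of 15 having a UMI. Erythroid markers summed to 3.49 CPM in the knockout and 562 CPM in WT, most of it in WT venous cells (2225 CPM, against 0 in knockout venous cells). Mural markers summed to 136 and 178 CPM in knockout and WT endothelial cells. The part of fibroblast, erythroid and mural transcripts in the differences was not tested. Without cycling cells the log2 ratio was -2.81 for Cd36, -3.83 for Rbp7, -2.24 for Cd300lg and 2.20 for Fabp5. Fabp4 had 0.48, Gpihbp1 0.39, Car4 0.54 and Lpl -1.0 without them. In knockout cells Rbp7 had 44.0 CPM (29.9 to 62.4) in 61 cycling and 7.99 CPM in 230 other endothelial cells. WT cells had 47.6 CPM (27.2 to 77.3) of it in 31 cycling and 113 CPM in 488 other cells. No difference in Rbp7 was thus detectable in cycling cells, from 31 knockout and 16 WT UMIs. In cycling cells Cd36 had 102 CPM in knockout and 309 in WT, Cd300lg 49.6 and 77.4 CPM, and Fabp5 225.5 and 125 CPM.

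Values at the edge of the endothelial gate were as follows. Before cells with markers of another class were left out, cells just inside the edge had 50.6 CPM of Cd36 in the knockout and 210 CPM in WT, and cells just outside it 50 and 128 CPM. Cd36 was lower in the knockout on both sides of the edge. Gpihbp1 had 1162 CPM in knockout and 744 CPM in WT cells just inside, and 498 and 428 CPM just outside. Rbp7 had 16.9 CPM in knockout and 31.7 CPM in WT cells just inside, and 5.20 and 19.0 CPM just outside. Cd300lg had 25.3 CPM in knockout and 72.7 CPM in WT cells just inside, and 9.37 and 61.3 CPM just outside. These 2 genes were lower in the knockout on both sides, as Cd36 was. Fabp5 had 224 CPM (319 UMIs) in knockout and 70.6 CPM (69 UMIs) in WT cells just inside, and 112.4 and 108 CPM just outside. Its excess in the knockout was thus seen inside the edge but not outside it, and with a gate of 100 in place of 50 per 10000 UMIs its log2 ratio was 1.51.

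Mural cells, pericytes and smooth muscle of the vessel wall, numbered 20 in the knockout library and 78 in WT. Fabp4 had 573 CPM in knockout and 2407 CPM in WT mural cells, a log2 ratio of -2.07 (-2.41 to -1.74). A single knockout mural cell held 54 of the 81 Fabp4 UMIs, and the highest WT cell 95 of 1170. A Fabp4 UMI was found in 50% of knockout and 96.2% of WT mural cells. Fabp5 had 1288 CPM in knockout and 327 CPM in WT mural cells, a log2 ratio of 1.98 (1.66 to 2.29). The highest knockout mural cell held 56 of its 182 UMIs. Lpl had 70.8 and 206 CPM in knockout and WT mural cells, a log2 ratio of -1.54. Fibroblast markers summed to 7551 CPM in knockout and 12417 CPM in WT mural cells, against 56129 and 73787 CPM in fibroblasts. The part of fibroblast transcripts in the mural differences was not tested. Gpihbp1, Rbp7 and Cd300lg had 0 UMIs in mural cells of both libraries. Of 4 genes measured, 2 were at least 2-fold lower and 1 higher, against 23.2% and 4.29% of all genes.

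In fibroblasts Lpl had 262 CPM (234 to 292) in the knockout and 697 CPM (687 to 707) in WT, a log2 ratio of -1.41. Car4 had 19.6 CPM (12.6 to 29.2) in knockout and 195 CPM (190 to 200) in WT fibroblasts, a log2 ratio of -3.31. Fabp4 and Fabp5 lay within 2-fold there, at 63.8 and 65.5 CPM in the knockout and 52.6 and 62.8 CPM in WT. These knockout levels lean on single cells. The highest knockout fibroblast held 51 of 78 Fabp4 UMIs, and the highest for Fabp5 held 33 of 80. After thinning, 5.81% of knockout and 7.24% of WT fibroblasts had a Fabp4 UMI, and 8.14% and 7.94% a Fabp5 UMI. Of 6 genes measured, 2 were lower and 0 higher, against 8.98% and 6.99% of all genes. The share of 8.98% counts genes with 0 knockout UMIs as lower, whereas the count of 2 leaves them out. Cd36 and Gpihbp1 had 0 UMIs in knockout fibroblasts, and 2.70 and 0.926 CPM in WT ones. The upper ends of their log2 intervals were 0.20 and 1.81, so no difference was detectable for either at this depth.

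The fibroblasts were not of like makeup in the libraries. Pi16, a marker of adventitial fibroblasts, had a UMI in 54 of 140 knockout and 2401 of 2839 WT fibroblasts, a split chosen after values were seen. The Pi16 positive cells had a median of 3640 UMIs in the knockout and 8795 in WT. Within Pi16 positive fibroblasts Lpl had 359 CPM in the knockout and 748 CPM in WT, and Car4 31.2 and 223 CPM. Within Pi16 negative ones Lpl had 217 CPM in the knockout and 441 CPM in WT, and Car4 14.3 and 54.2 CPM. Fibroblasts were also split by a UMI of Acta2, found in 35 knockout and 449 WT fibroblasts. With such a UMI, Lpl had 160 CPM (129 to 196) in the knockout and 241 CPM (229 to 253) in WT. Without one it had 355 and 842 CPM. Car4 had 20.6 and 127 CPM with an Acta2 UMI, and 18.7 and 216 CPM without. Both genes were thus lower in the knockout on either side of both splits, with the smallest Lpl difference in Acta2 positive cells. The part of makeup in these differences was not tested.

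Keratin positive cells had little of any of the genes except Fabp5, 59.4 CPM (58.0 to 60.9) in the knockout and 40.8 CPM (39.1 to 42.6) in WT. The other 7 genes were at or under 1.73 CPM in both libraries. Of 6 genes measured there, 4 were lower and 0 higher, against 3.95% and 1.01% of all genes, at levels where free RNA of other cells is also counted.

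Across single endothelial cells, Fabp4 and Fabp5 went together in both libraries, with a Pearson correlation of 0.61 over 269 knockout cells and 0.46 over 485 WT cells. Cd36 and Fabp4 had 0.19 in the knockout and 0.54 in WT, and Cd36 and Cd300lg 0.15 and 0.35. All points of a library share its cells and depth, and the values are descriptions of sparse counts. Gpihbp1 had Igfbp3, Sparc, Cldn5, Ctla2a and Trp53i11 as its 5 most similar genes in both libraries. Car4 was most like 2200002D01Rik in both, at 0.53 in the knockout and 0.36 in WT. Cd36 in WT cells was most like Fabp4, Ly6c1, Lrg1, Cd300lg and Epas1, and Rbp7 like Slco2a1, Entpd1 and Ly6c1.

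**Figure D4:**
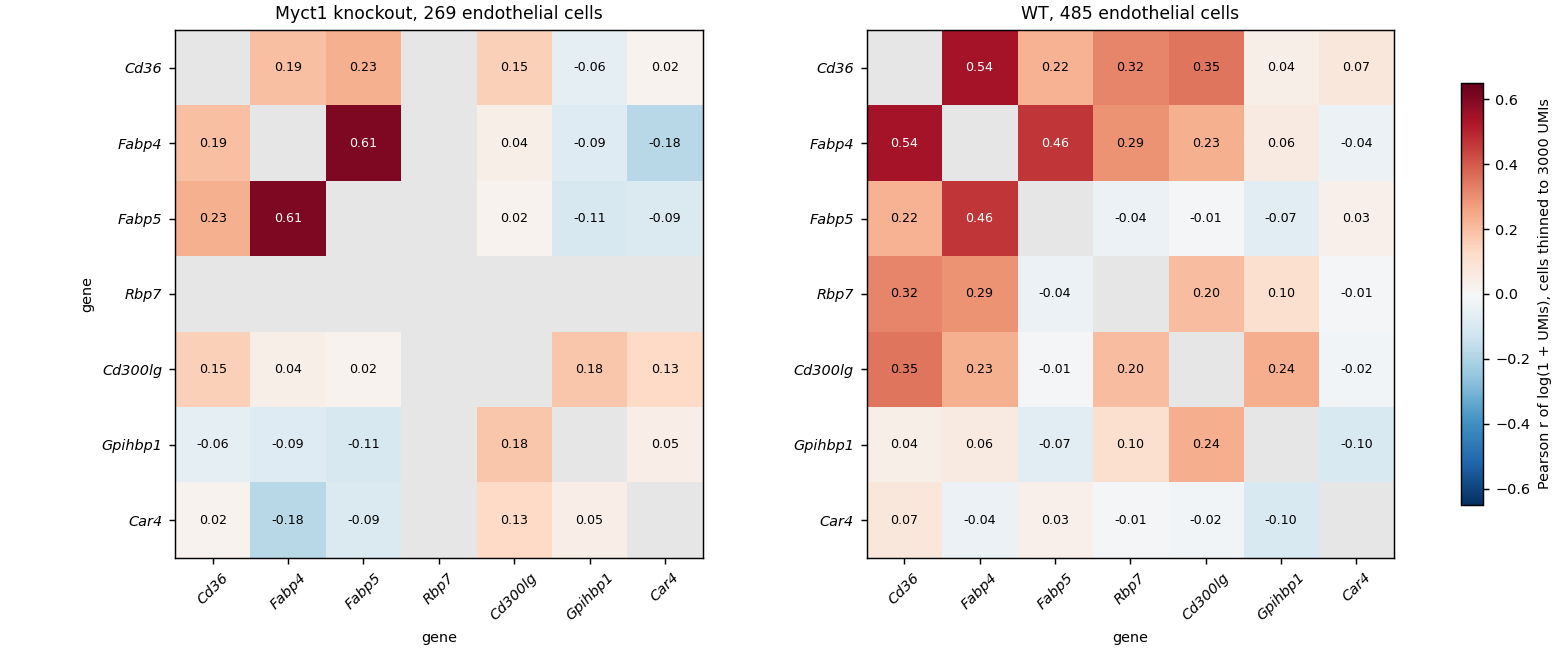
Pearson correlation between pairs of genes over endothelial cells thinned to 3000 UMIs, 269 Myct1 knockout cells (left) and 485 WT cells (right); both axes list the genes. The Fabp4 and Fabp5 pair has 0.61 in the knockout and 0.46 in WT. Grey squares are pairs not computed.

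Related genes were counted in 10 lists, to be read against the 13.6% of all genes that were at least 2-fold lower in knockout endothelial cells and the 3.92% that were higher. The counts were also taken with TMM scaling, after the unscaled counts had been seen, which adds 0.31 to every log2 ratio. Of the lipase and lipoprotein list, 4 of 19 measured genes passed the 2-fold limit downward and 2 upward, and with TMM scaling 1 was lower, Scarb1, and 3 higher. All 3 of the higher genes were over 3 times higher in another class. The lipoprotein receptor Scarb1 had 121 CPM in the knockout and 387 CPM in WT, a log2 ratio of -1.68. Lpcat3, a phospholipid acyltransferase, and Hspg2, the heparan sulfate proteoglycan perlecan, had log2 ratios of -1.28 and -1.18, while the syndecan Sdc4 had 1.27 but was over 3 times higher in another class. Of the other capillary genes, 7 of 14 were lower and 0 were higher, and their median was -0.97. With TMM scaling 2 of 14 were lower, Aqp1 and Cyp4b1, and the median was -0.67. Among them the water channel Aqp1 had -1.39, the VEGF receptor Kdr -1.28, Btnl9 -1.15 and Cyp4b1, over 3 times higher in another class, -1.59. Most genes of this list, Aqp1, Btnl9 and Cyp4b1 included, also served as markers of the capillary or arterial set. Kdr was a marker of the endothelial gate. The list and the share of capillary or arterial cells are thus not separate results.

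In the droplet and fatty acid oxidation list, 2 of 13 were lower and 1 higher, with TMM scaling too. The mitochondrial carrier Ucp2 had 22.9 CPM in the knockout and 92.2 CPM in WT (log2 ratio -2.01), Acot2 -2.31 from 3 and 22 UMIs, and the droplet protein gene Hilpda 176 and 79.2 CPM (1.15). In the retinoid list 2 of 10 were lower and 1 higher, and with TMM scaling 0 were lower and 2 higher. The 2 higher with TMM scaling were Crabp2 and Rdh5, both over 3 times higher in another class. Rdh5 had 12 UMIs in knockout and 11 in WT endothelial cells. The retinaldehyde reductase Dhrs3 had a log2 ratio of -1.30 and the retinol dehydrogenase Rdh10 -1.23, while the retinoic acid binding protein gene Crabp2 had 2.40, and both Rdh10 and Crabp2 were over 3 times higher in another class. None of 13 nuclear receptor and regulator genes passed 2-fold in either direction, with a median of -0.63, although 1 was higher with TMM scaling. Of 7 caveolar genes none passed it under either scaling, with a median of -0.36. Of the retinoic acid receptor and target list, 1 of 6 was lower by a finite ratio, Tgm2 at -1.38, and Rarres2 had 0 UMIs in the knockout and 22 in WT. The share of 13.6% of all genes counts genes with 0 knockout UMIs as lower, so by its rule Rarres2 would count too. Podxl, the podocalyxin gene, had -1.26, the 1 of 3 sialomucin genes past 2-fold and within it with TMM scaling, while Emcn had 0.02. Of 6 fatty acid uptake genes 1 was lower, the fatty acid transporter gene Slc27a1 at -1.68, and of 4 other carbonic anhydrase genes 1 was higher, Car9 at 1.18, both from under 30 UMIs in each library and over 3 times higher in another class.

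**Figure D5:**
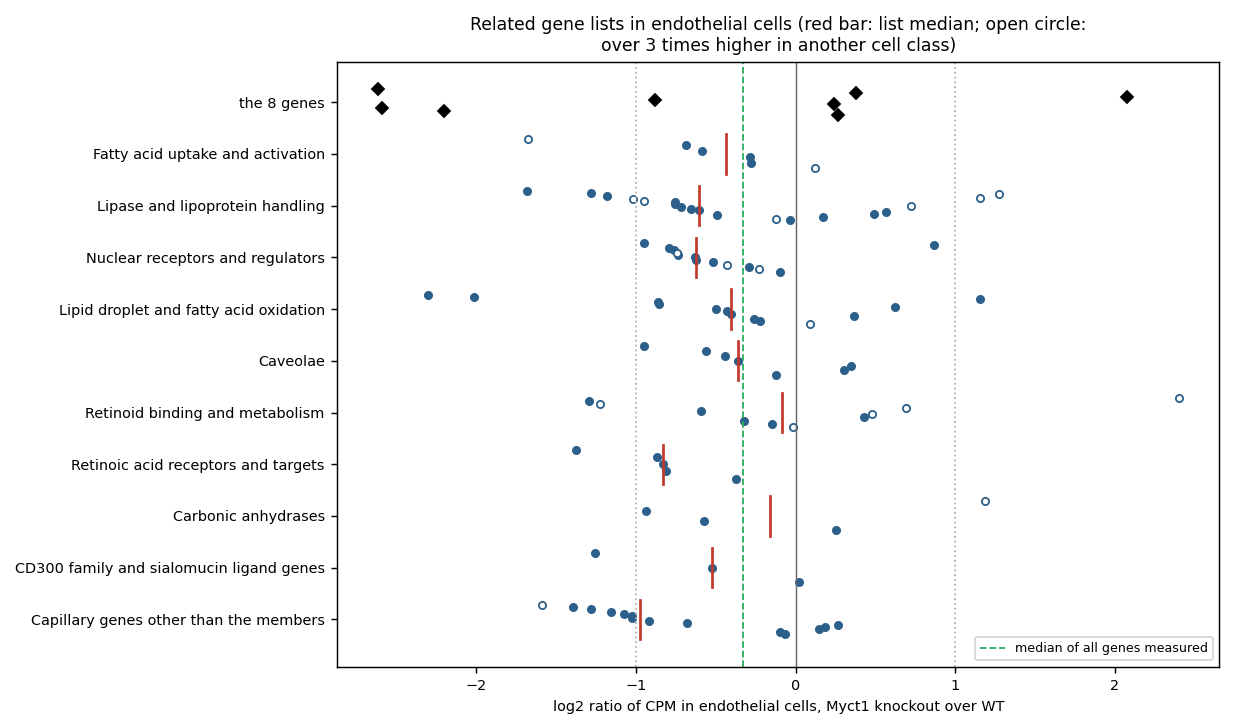
Log2 ratio of CPM in endothelial cells, Myct1 knockout over WT (horizontal axis), of the 8 genes (diamonds) and of 10 lists of related genes (circles), with list medians in red and the median of all genes, -0.33, as a dashed line. The capillary list has a median of -0.97 and the caveolar list -0.36.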

How the data were processed

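Droplet 3′ single-cell RNA libraries were made from pooled tumours. The authors deposited raw UMI counts of genes by barcode, made with Cell Ranger 2.1.1 and mm10 per the submitters' processing notes; every listed gene reached 4 UMIs in a barcode. Cells were gated on UMIs per 10000 of marker genes that include none of the 8 genes. Endothelial cells had at least 50 per 10000 from 20 markers, and 24 knockout and 65 WT cells with markers of another class were left out, which was the treatment of doublets; no doublet caller was run. Counts were summed per class and library and given as CPM with exact Poisson 95% intervals, and ratios with exact conditional intervals; 13 alternatives were tried. Genes needed 20 UMIs over both libraries. The ratio calculation was tested on simulated data. The 8 genes and all lists were chosen with earlier results of these data known. Gate limits, the length and identity limits for near-identical copies, the motifs kept and the 20 CPM floor for differences that vary by cell class were set after looking at the data. Up to 4 genes per list were named by largest absolute log2 ratio. Python 3.11.15, scanpy 1.11.5, BLAST+ 2.17.0 and edgeR 4.0.16 (TMM factors) were used.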

Additional observations from a re-analysis of the deposited data

Results flagged for a closer look

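2 genes had differences in opposite directions between cell classes, each with counting intervals on either side of 0. These contrasts between classes were not tested, since each genotype had 1 library. Fabp4 had a log2 ratio, knockout over WT, of 1.64 in tip cells, -0.81 in capillary or arterial cells and -2.07 in mural cells. The highest knockout cell of these classes held 344 of 1835, 128 of 319 and 54 of 81 Fabp4 UMIs. Car4 had 1.26 in venous cells and -3.31 in fibroblasts. Gpihbp1 also differed in sign, -0.61 in venous and 0.24 in tip cells, but stayed within 2-fold and so is not counted among the 2. The listing was limited, after the values had been seen, to classes with at least 20 CPM in a library. This left out keratin positive cells, where Fabp4 had -1.14 from 0.785 CPM in the knockout and 1.73 CPM in WT, and Car4 had -2.54 from 0.241 and 1.40 CPM.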

How the results depend on the processing

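No paired analysis was possible because each genotype had 1 library. Over 13 alternatives, 1 of them (barcodes in both libraries left out) chosen after seeing the data, Cd36, Rbp7 and Cd300lg stayed at least 2-fold lower and Fabp5 at least 2-fold higher. Their log2 ratios ranged from -3.11 to -2.23, from -3.83 to -1.76, from -2.74 to -1.84 and from 1.34 to 2.44. Lpl ranged from -3.61 to -0.28 and passed 2-fold in 3 alternatives. Fabp4 ranged from 0.11 to 0.98, Gpihbp1 from -0.07 to 0.58 (positive in 10) and Car4 from -0.13 to 0.73 (positive in 12). The median of the 8 genes was -1.02 with clusters in place of the gate and 0.23 with thinned cells, where 7 genes were measured; the cause was not tested. TMM scaling moved the median of all genes to -0.02, and the shares of genes at least 2-fold lower and higher to 5.12% and 8.98%, against 13.53% and 3.92% of genes with a finite ratio without it. The counts of the related lists with TMM scaling, also added after seeing the data, stand beside the unscaled ones. Capillary or arterial cells, mural cells and knockout fibroblasts were few, which limits their values.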

Other observations

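2 small classes showed further levels of these genes. In macrophages, 28 knockout cells with a median of 619.5 UMIs and 71 WT cells with a median of 892, Fabp5 had 1302 CPM (1005 to 1660) in the knockout and 668 CPM (555 to 796) in WT. The highest knockout macrophage held 47 of 65 UMIs and the highest WT one 41 of 124. A Fabp5 UMI was found in 28.6% of knockout and 33.8% of WT macrophages. In lymphatic cells, 14 in each library, Gpihbp1 had 6 UMIs in the knockout and 31 in WT, and Cd36 had 0 and 11.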
